A study of Arabidopsis thaliana with 12 samples.

Results

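The phloem protein 2-B group was followed through 5 loci of Arabidopsis thaliana, 5 of the 36917 loci counted in each library. PP2-B13 (AT1G56240), the long non-coding RNA locus AT1G56242 and PP2-B14 (AT1G56250) lie side by side on chromosome 1, PP2-B11 (AT1G80110) lies elsewhere on chromosome 1 and PP2-B10 (AT2G02360) lies on chromosome 2. They were chosen by locus name, with values of these libraries already known, so their own values are given as a description. Where a locus is said to be called, that is only the outcome of the fit across all genes. It is no test of the locus, because of that choice. Of the 5 loci, 4 had enough counts to enter the fit across all genes, in which 17879 loci were tested. PP2-B11 did not. PP2-B14 passed the filter on low counts through its flu/ex1/ydl1 libraries and would not have passed on the flu/ex1 libraries alone.

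Phloem protein 2 was first known as an abundant lectin of the sieve elements and companion cells, the cells that carry sugars through the plant. In Arabidopsis the family is wide, and members of its B group join an F-box to a lectin-like domain. An F-box protein is the part of an SCF ubiquitin ligase that picks the protein to be marked for degradation, and binds the rest of the ligase through SKP1-type adaptors. PP2-B14 is also known as VBF, the F-box protein that binds VIP1 in cells infected with Agrobacterium. PP2-B11 has been described as an F-box protein acting on the kinase SnRK2.3 in abscisic acid signalling, and PP2-B10 as a stress-responsive F-box lectin.

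The series asks, by its title, whether YDL1 restrains the answer of nuclear genes to singlet oxygen. Both genotypes carry the flu mutation, through which protochlorophyllide accumulates in darkness and gives singlet oxygen in the light, and both lack EX1, a plastid protein needed for much of the nuclear answer to it. The flu/ex1/ydl1 plants carry the ydl1 mutation as well and the flu/ex1 plants do not. Plants of both genotypes were grown on soil in continuous light until 6 d of age and moved to darkness for up to 4 h. Whole plants were then read by RNA sequencing at 0, 30 or 60 min of light, with 2 libraries of each genotype at each time. No wild type, no flu single mutant and no plant kept in light is among these groups. Nothing in the labels tells if the 2 libraries of a group came from separate plants, so every error and every p here measures the spread between libraries, which may be technical.

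The light time is taken from the code in the name of each deposited file, and replicates carry the number in that code. The labels gave another time for 8 of the 12 libraries and the same time for 4, and every file-name code matched the title of exactly 1 library. The genotype was the same in both. Total counts ran between 7859611 and 11591060 per library, and 63.3% to 71.7% of them fell on plastid loci. Levels are CPM, the counts of a locus per 1000000 counts of its library, scaled by TMM, which corrects for differences in composition between libraries. The TMM factor was 0.704 in flu/ex1/ydl1 60 min replicate 1, 1.20 in flu/ex1/ydl1 60 min replicate 2 and 1.38 in flu/ex1 60 min replicate 1. Replicate 1 of flu/ex1/ydl1 at 60 min thus had the lowest factor of the 12 libraries and replicate 1 of flu/ex1 at 60 min the highest.

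In darkness the 3 neighbouring loci were near the limit of detection in both genotypes. At 30 and 60 min they stood well above that level in flu/ex1/ydl1, while in flu/ex1 they were somewhat higher at 30 min and lay around or under the dark level at 60 min. PP2-B10 had means between 1.97 and 2.38 CPM in the 6 groups. PP2-B11 had means between 0.509 and 1.06 CPM, with the highest in flu/ex1/ydl1 at 60 min and the lowest in flu/ex1 at 60 min.

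PP2-B13, an F-box and lectin gene, had 0.948 and 0.654 CPM in the flu/ex1/ydl1 libraries at 0 min, 16.6 and 31.2 CPM at 30 min, and 23.4 and 68.8 CPM at 60 min. In the flu/ex1 libraries it had 0.969 and 0.689 CPM at 0 min, 2.25 and 3.59 CPM at 30 min, and 0.316 and 0.984 CPM at 60 min. The genotypes overlapped at 0 min and did not overlap at 30 and 60 min. With 2 libraries a group, such separation is a description only, here and below. Its share over all genes was not counted. The lowest lit flu/ex1/ydl1 library lay above the highest flu/ex1 library of any time. The means of the flu/ex1/ydl1 libraries were 0.801 ± 0.208, 23.9 ± 10.4 and 46.1 ± 32.1 CPM at 0, 30 and 60 min (SD, n = 2 each). Those of the flu/ex1 libraries were 0.829 ± 0.198, 2.92 ± 0.944 and 0.650 ± 0.473 CPM (SD, n = 2 each). The spread at 60 min in flu/ex1/ydl1 was wide, with replicate 2 well above replicate 1, so the means at 30 and 60 min of light did not differ beyond it.

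AT1G56242, annotated as a long non-coding RNA, followed PP2-B13 library by library. It had 0.542 and 0.523 CPM in flu/ex1/ydl1 at 0 min, 11.3 and 24.0 CPM at 30 min, and 17.2 and 55.9 CPM at 60 min. In flu/ex1 it had 0.692 and 0.591 CPM at 0 min, 1.76 and 2.39 CPM at 30 min, and 0.189 and 0.773 CPM at 60 min. As for PP2-B13, the lit libraries of the 2 genotypes did not overlap. In darkness both flu/ex1/ydl1 libraries lay slightly below both flu/ex1 libraries, on 4 to 6 counts a library.

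PP2-B14, the VIP1-binding F-box gene, showed the widest gap. It had 0.406 and 0.523 CPM in flu/ex1/ydl1 at 0 min, 14.4 and 22.7 CPM at 30 min, and 30.2 and 47.8 CPM at 60 min. In flu/ex1 it had 0.692 and 0.0985 CPM at 0 min, 0.685 and 1.99 CPM at 30 min, and 0.126 and 0.0703 CPM at 60 min. At 60 min these flu/ex1 levels rest on 2 and 1 counts, against 169 and 629 counts in the flu/ex1/ydl1 libraries. Its 60 min libraries in flu/ex1/ydl1 both lay above its 30 min libraries, and its 60 min libraries in flu/ex1 both lay below its 30 min libraries. The means at 60 min were 39.0 ± 12.5 CPM in flu/ex1/ydl1 and 0.0983 ± 0.0396 CPM in flu/ex1 (SD, n = 2 each).

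**Figure D1:**
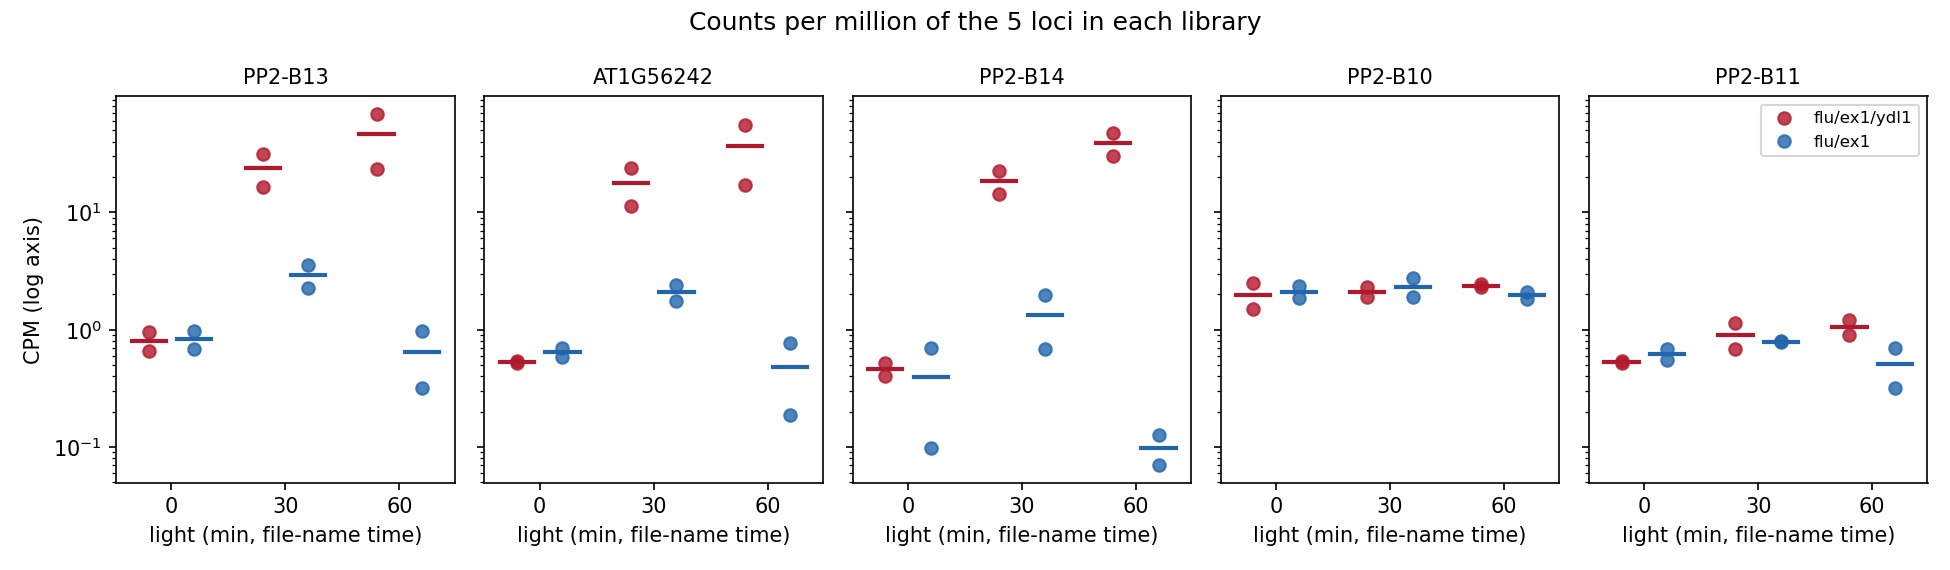
CPM (log axis) of the 5 loci in each of the 12 libraries by file-name light time in minutes; points are libraries, bars are means of 2, red is flu/ex1/ydl1 and blue is flu/ex1. PP2-B13, AT1G56242 and PP2-B14 are higher in flu/ex1/ydl1 at 30 and 60 min and at most 0.969 CPM in any dark library, while PP2-B10 stays between 1.49 and 2.74 CPM and PP2-B11 between 0.316 and 1.22 CPM.

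PP2-B10, the stress-responsive F-box lectin, gave much steadier values. It had 1.49 and 2.48 CPM in flu/ex1/ydl1 at 0 min, 1.88 and 2.33 CPM at 30 min, and 2.32 and 2.43 CPM at 60 min. In flu/ex1 it had 2.35 and 1.87 CPM at 0 min, 2.74 and 1.89 CPM at 30 min, and 1.83 and 2.11 CPM at 60 min. The genotypes overlapped at 0 and 30 min, and at 60 min the lower flu/ex1/ydl1 library lay just above the higher flu/ex1 library. Over all times its mean was 2.16 ± 0.390 CPM in flu/ex1/ydl1 and 2.13 ± 0.357 CPM in flu/ex1 (SD, n = 6 each).

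PP2-B11, described as acting on SnRK2.3, had 4 to 16 counts per library. Its levels were 0.542 and 0.523 CPM in flu/ex1/ydl1 at 0 min, 1.13 and 0.681 CPM at 30 min, and 0.893 and 1.22 CPM at 60 min. In flu/ex1 they were 0.554 and 0.689 CPM at 0 min, 0.783 and 0.797 CPM at 30 min, and 0.316 and 0.703 CPM at 60 min. At 60 min both flu/ex1/ydl1 libraries were above both flu/ex1 libraries, on sums of 21 and 15 counts. The ratio of these sums, scaled to library size, was 2.25 with a counting interval of 1.1 to 4.68. That interval covers counting error only and not the spread between libraries. At 30 min the same ratio was 1.11, with an interval of 0.519 to 2.37.

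Divided by exon length in the TAIR10.1 annotation, the levels of the 5 loci can be set in a rough order. The lengths of PP2-B13 and AT1G56242 include 810 bases that they share, so the level per kb of these 2 loci is uncertain. At 0 min in flu/ex1/ydl1, PP2-B10 was first at 1.59 CPM per kb, ahead of PP2-B13 at 0.628, AT1G56242 at 0.425, PP2-B11 at 0.379 and PP2-B14 at 0.364 CPM per kb. At 60 min in flu/ex1/ydl1, PP2-B13 was first at 36.2 CPM per kb, ahead of PP2-B14 at 30.6, AT1G56242 at 29.2, PP2-B10 at 1.90 and PP2-B11 at 0.751 CPM per kb. The first 3 of that order lay within the spread of their 2 libraries. At 60 min in flu/ex1, PP2-B10 was again first at 1.57 CPM per kb, ahead of PP2-B13 at 0.509, AT1G56242 at 0.384, PP2-B11 at 0.362 and PP2-B14 at 0.0770 CPM per kb. The places after PP2-B10 rest on few summed counts. In the orders given, these were 12, 8, 8 and 7 at 0 min in flu/ex1/ydl1, and 19, 14, 15 and 3 at 60 min in flu/ex1. In bulk RNA from whole plants, more cells with a transcript and more transcript per cell cannot be told apart.

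The comparison of genotypes asks what the ydl1 mutation adds to flu/ex1. Over all times the log2 fold change, flu/ex1/ydl1 over flu/ex1, was 3.06 ± 0.43 (SE) for PP2-B13, 3.04 ± 0.54 for AT1G56242, 4.21 ± 0.52 for PP2-B14 and 0.03 ± 0.22 for PP2-B10. The first 3 of the 4 loci tested were called higher, in a comparison that called 8.97% of all genes tested and 7% as higher. Nothing is read from such counts, here or in the comparisons that follow, because the loci were chosen with these values known. PP2-B14 also entered the fit through its flu/ex1/ydl1 libraries, where it is high.

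In darkness the fold changes between genotypes were all smaller than their errors. At 0 min none of the 4 tested loci was called, where 0.0112% of all genes were. The log2 fold changes were -0.02 ± 0.87 for PP2-B13, -0.25 ± 1.03 for AT1G56242, 0.40 ± 0.94 for PP2-B14 and -0.07 ± 0.41 for PP2-B10. With 1 to 7 counts per library for the 3 neighbouring loci, a difference of the order of these errors was not detectable at this depth.

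At 30 min of light, flu/ex1/ydl1 was higher than flu/ex1 by a log2 fold change of 3.03 ± 0.48 for PP2-B13, 3.09 ± 0.52 for AT1G56242 and 3.79 ± 0.44 for PP2-B14. These 3 of 4 loci were called, in a comparison that called 3.92% of all genes and 3.56% as higher. PP2-B10 had -0.13 ± 0.38. Summed over libraries, PP2-B13 had 453 counts in flu/ex1/ydl1 and 59 in flu/ex1, and the ratio scaled to library size was 8.52 (95% counting interval 6.49 to 11.4). PP2-B14 had 348 counts in flu/ex1/ydl1 and 27 in flu/ex1, a ratio of 14.3 (9.66 to 22.0).

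At 60 min the gap was wider. The log2 fold change was 6.17 ± 0.57 for PP2-B13, 6.27 ± 0.61 for AT1G56242 and 8.45 ± 0.59 for PP2-B14. These 3 of 4 were called, in a comparison that called 9.86% of all genes and 8.53% as higher. PP2-B10 had 0.28 ± 0.37. Summed counts of PP2-B13 were 1036 in flu/ex1/ydl1 and 19 in flu/ex1, a scaled ratio of 87.5 (95% counting interval 55.7 to 146). Those of PP2-B14 were 798 in flu/ex1/ydl1 and 3 in flu/ex1, a ratio of 427 whose interval of 146 to 2074 is wide because of the 3 counts. The fitted fold change of PP2-B14 depends on the small prior count that the fit adds and is no bound. Without flu/ex1/ydl1 60 min replicate 2, the library with the most counts of all 3 loci, the log2 fold change was 5.17 for PP2-B13. Without flu/ex1 60 min replicate 3 it was 7.15.

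The response to light was also read within each genotype, against the dark libraries of the same genotype. These comparisons share their dark libraries, so they are set side by side and not compared as independent. In flu/ex1/ydl1 the log2 fold change of 30 over 0 min was 4.89 ± 0.60 for PP2-B13, 5.03 ± 0.67 for AT1G56242 and 5.28 ± 0.54 for PP2-B14. These 3 of 4 were called, where 5.39% of all genes were, and 4.79% of all genes as higher. The log2 fold change of 60 over 0 min was 5.85 ± 0.60 for PP2-B13, 6.09 ± 0.66 for AT1G56242 and 6.36 ± 0.53 for PP2-B14. These 3 of 4 were called as well, where 12.8% of all genes were, and 9.6% of all genes as higher. PP2-B10 had 0.09 ± 0.41 at 30 min and 0.26 ± 0.40 at 60 min.

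In flu/ex1 the 3 neighbouring loci had log2 fold changes of 1.83 ± 0.67 for PP2-B13, 1.69 ± 0.77 for AT1G56242 and 1.89 ± 0.73 for PP2-B14 at 30 over 0 min. None of the 4 tested loci was called, where 0.649% of all genes were. Both 30 min libraries of PP2-B13 and of AT1G56242 lay above both dark libraries, and for PP2-B14 the groups overlapped. Nothing is read from this separation of 2 libraries from 2. At 60 over 0 min the log2 fold changes were -0.34 ± 0.79, -0.43 ± 0.92 and -1.69 ± 1.1 for the same loci in the same order, none was called, and 1.38% of all genes were. Single libraries moved these values. PP2-B14 had 0.94 at 30 min and -2.65 at 60 min without flu/ex1 0 min replicate 3, and 3.60 at 30 min and 0.03 at 60 min without flu/ex1 0 min replicate 2. At 60 min PP2-B13 had -1.33 and AT1G56242 -1.68 without flu/ex1 60 min replicate 3, and 0.27 and 0.28 without flu/ex1 60 min replicate 1, so the sign at 60 min was not settled for any of the 3 loci. PP2-B10 had 0.15 ± 0.39 at 30 min and -0.09 ± 0.38 at 60 min.

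The difference between the genotypes in the 60 min light response, which is the fold change in flu/ex1/ydl1 minus that in flu/ex1, was 6.19 ± 1.1 for PP2-B13, 6.52 ± 1.30 for AT1G56242 and 8.05 ± 1.43 for PP2-B14 on the log2 scale. These 3 of 4 were called, where 3.26% of all genes were, and 3.12% of all genes with a positive difference. PP2-B10 had 0.35 ± 0.55.

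**Figure D2:**
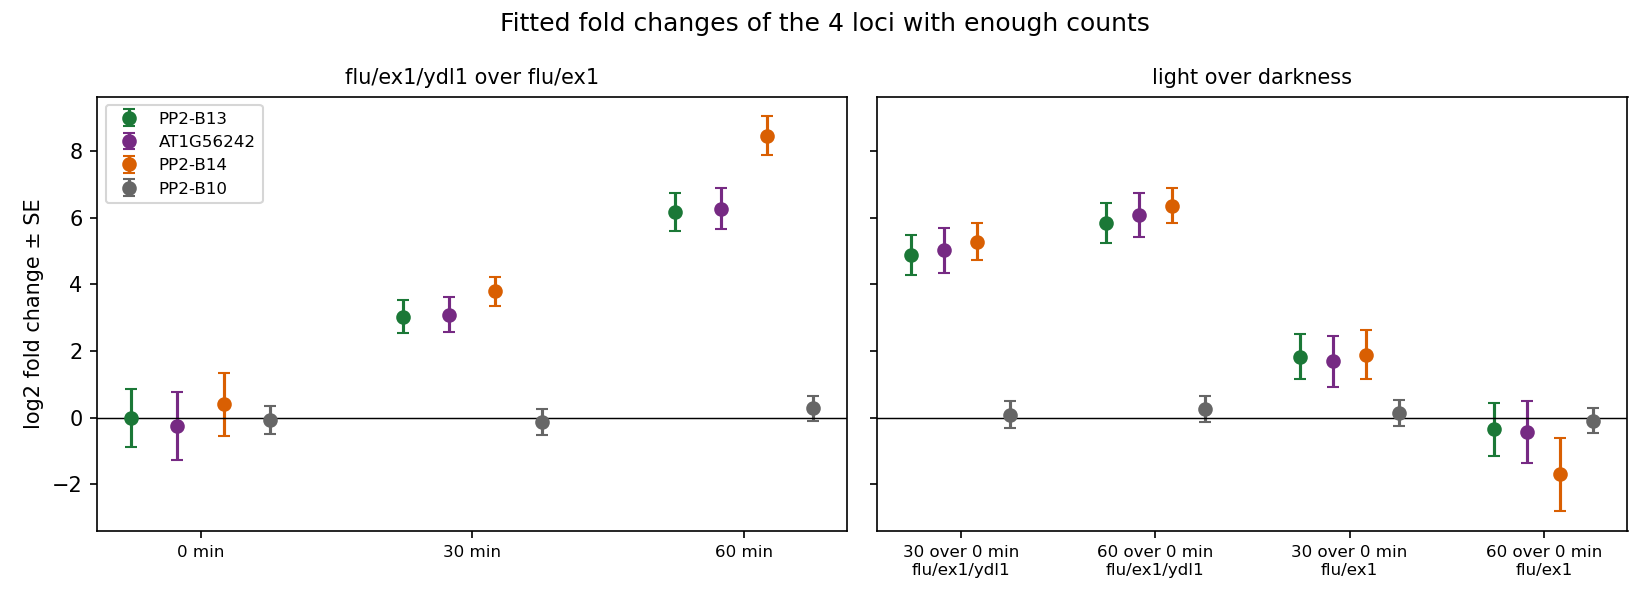
Fitted log2 fold changes ± SE of the 4 loci with enough counts; the left panel shows flu/ex1/ydl1 over flu/ex1 at 0, 30 and 60 min and the right panel shows 30 or 60 min over 0 min in each genotype. PP2-B13, AT1G56242 and PP2-B14 go together, at 6.17, 6.27 and 8.45 between genotypes at 60 min, and PP2-B10 lies near 0 throughout.

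Grouped by the labelled times in place of the file-name times, the libraries of some groups disagree for the 3 neighbouring loci, most widely in flu/ex1/ydl1 at 0 and 30 min. Those of flu/ex1/ydl1 at 60 min and of flu/ex1 at 30 min lay near each other. PP2-B13 then had 0.948 and 16.6 CPM at 0 min in flu/ex1/ydl1, 0.654 and 68.8 CPM at 30 min, and 23.4 and 31.2 CPM at 60 min. In flu/ex1 the pairs were 0.969 and 3.59 CPM at 0 min, 0.689 and 0.984 CPM at 30 min, and 0.316 and 2.25 CPM at 60 min. The log2 fold change between genotypes over all times was then 3.92 ± 0.94 for PP2-B13, 3.92 ± 0.94 for AT1G56242 and 5.52 ± 1.07 for PP2-B14. That of 60 over 0 min in flu/ex1/ydl1 was 1.64 ± 1.41 for PP2-B13 and 1.82 ± 1.36 for PP2-B14. That of 30 over 0 min in flu/ex1 turned negative, at -1.46 ± 1.73 for PP2-B13 and -3.89 ± 2.54 for PP2-B14. The same 6 libraries stand against the same 6 over all times in both groupings, so the direction of that difference tests nothing about the times. The size and direction of the light responses depended on the grouping.

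The 4 libraries with 1 time in both sources give values free of that doubt about time, with 1 library a group. For both 60 min libraries the replicate number still differed between label and file name. PP2-B13 had 0.948 CPM at 0 min and 23.4 CPM at 60 min in flu/ex1/ydl1, against 0.969 CPM at 0 min and 0.316 CPM at 60 min in flu/ex1. PP2-B14 had 0.406 CPM at 0 min and 30.2 CPM at 60 min in flu/ex1/ydl1, against 0.692 CPM at 0 min and 0.126 CPM at 60 min in flu/ex1. The names of 6 files also carry a tag whose meaning is not given, on 1 library of each group. At 60 min the ratio of flu/ex1/ydl1 to flu/ex1 was 218 for PP2-B13 between the tagged libraries and 23.8 between the untagged ones. For PP2-B14 it was 379 between the tagged libraries and 430 between the untagged ones.

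PP2-B13 and AT1G56242 cannot be separated in these files. In TAIR10.1 they lie on opposite strands and share 810 exonic bases, which is 63.5% of the exonic length of PP2-B13 and 64.7% of that of AT1G56242. The strand setting of the counting is not given in the sources used here, so reads of the coding gene and of its antisense partner may be mixed. AT1G56242 took 42.0% ± 3.17 of the counts of the pair in flu/ex1/ydl1 and 42.2% ± 3.13 in flu/ex1 (SD, n = 6 each). The share ran between 36.4% and 44.8% in flu/ex1/ydl1 and between 37.5% and 46.2% in flu/ex1. It was thus about the same in the libraries with the fewest and the most counts, while the summed counts of the pair were highest at 1640 in flu/ex1/ydl1 60 min replicate 2 and lowest at 8 in flu/ex1 60 min replicate 1.

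PP2-B14 lies on the same strand as PP2-B13 and shares no annotated overlap with the pair. As PP2-B13 and PP2-B14 are relatives, reads that match both could have been counted in either or in neither, and how the authors treated them is not given in the sources used here. PP2-B14 took 43.4% ± 8.55 of the summed counts of PP2-B13 and PP2-B14 in flu/ex1/ydl1 and 24.7% ± 13.4 in flu/ex1 (SD, n = 6 each). The ranges of 30% to 56.3% in flu/ex1/ydl1 and 6.67% to 41.7% in flu/ex1 overlapped. The flu/ex1 shares rest on 7 to 56 counts a library. At 60 min in flu/ex1/ydl1 the 2 libraries differed from each other, at 56.3% of 300 counts in replicate 1 (95% exact binomial interval 50.5% to 62.0%) and 41% of 1534 counts in replicate 2 (38.5% to 43.5%). These intervals do not overlap, so the relative level of the 2 genes differed between replicates by more than counting error. At 30 min the shares were 46.6% and 42.1% in flu/ex1/ydl1, against 23.3% and 35.7% in flu/ex1.

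**Figure D3:**
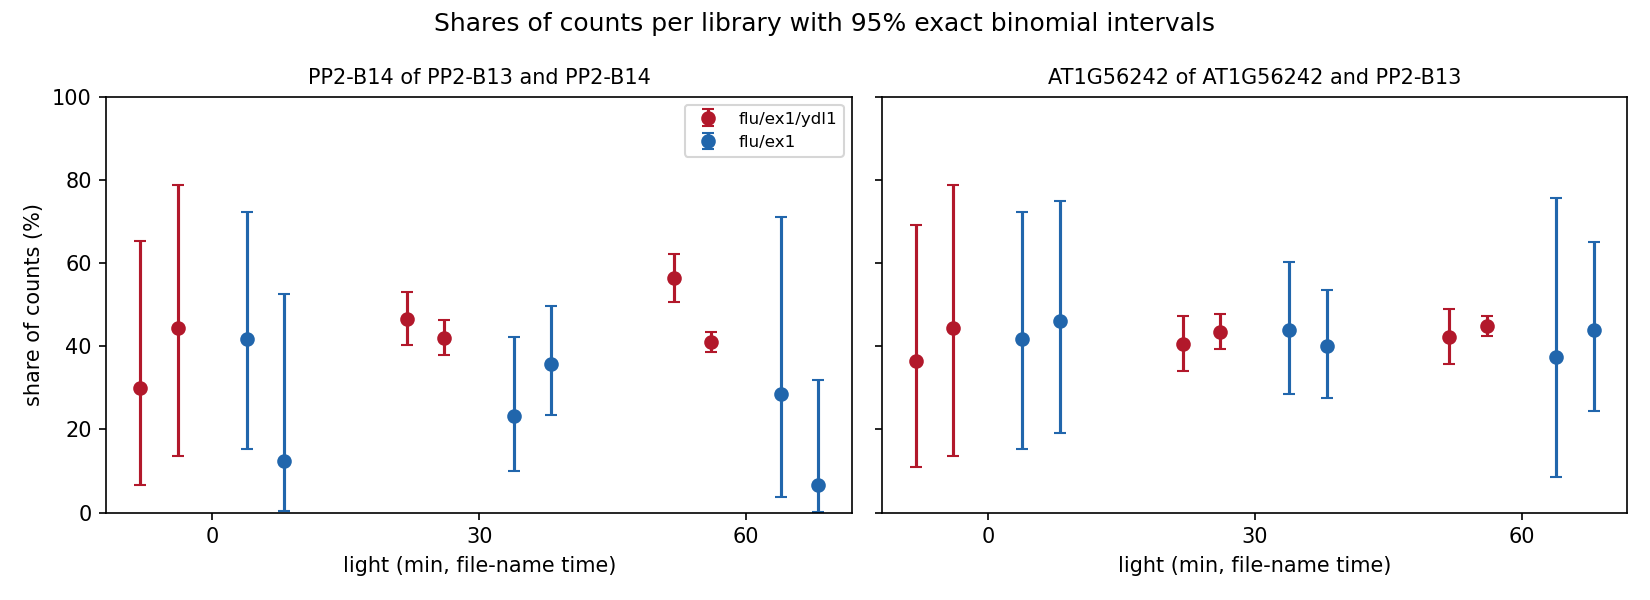
Share of counts in percent for each library with its 95% exact binomial interval by file-name light time in minutes; the left panel shows PP2-B14 among PP2-B13 and PP2-B14, and the right panel AT1G56242 among AT1G56242 and PP2-B13, with flu/ex1/ydl1 in red and flu/ex1 in blue. The share of AT1G56242 stays between 36.4% and 46.2% in all 12 libraries, and that of PP2-B14 runs between 6.67% and 56.3%.

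None of the annotated neighbours of the cluster was called. Of the 3 annotated loci on each side, 3 had enough counts, and edgeR and DESeq2 each called 0 of them in each of the 9 comparisons, with at most 1 at an unadjusted p under 0.05. At 60 min the log2 fold change between genotypes was 0.04 ± 0.56 for the small nucleolar RNA AT1G08117 (edgeR adjusted p = 0.978), 0.50 ± 0.29 for MDO1 (adjusted p = 0.356) and 0.24 ± 0.27 for DI19 (adjusted p = 0.675). DI19, a drought-induced zinc finger gene, is the best covered of them, with 207 to 821 counts per library. AT1G08113, AT1G08123 and AT1G56270 had 3 counts or fewer in each library. On the side of PP2-B13 all 3 loci are small nucleolar RNA genes, and AT1G08117 had 8 to 21 counts per library. No protein-coding neighbour was examined on that side.

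**Figure D4:**
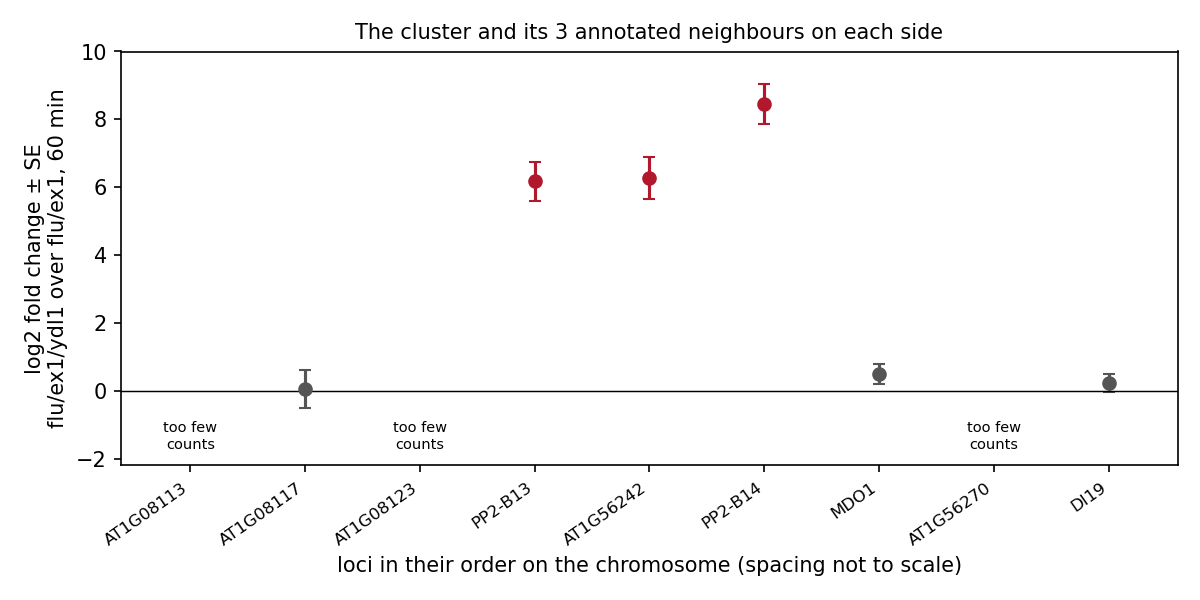
Log2 fold change ± SE of flu/ex1/ydl1 over flu/ex1 at 60 min for the cluster (red) and the 3 annotated loci on each side (grey), in chromosome order and not to scale. The cluster stands at 6.17 to 8.45 and the 3 neighbours with enough counts at 0.04 to 0.50.

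Around PP2-B10, AT2G02370 had a log2 fold change of 0.36 ± 0.38 between genotypes at 60 min (edgeR adjusted p = 0.649) and GSTZ1, a glutathione transferase gene, had 0.20 ± 0.27 (adjusted p = 0.732). PP2-B8 and SKIP3, which are B-group relatives lying next to PP2-B10, and GSTZ2 had too few counts. Around PP2-B11, TMM, a receptor-like protein gene of stomatal patterning, had -0.27 ± 0.29 (edgeR adjusted p = 0.66). AT1G80120 had 1.61 ± 0.83 (adjusted p = 0.288) and AT1G80130 had 0.01 ± 0.59 (adjusted p = 0.998). Of these 5, edgeR and DESeq2 called 0 in each comparison, with at most 1 around each locus at an unadjusted p under 0.05.

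Of the other PP2 genes 26 are in the files and 10 had enough counts. Over all times 2 of the 10 were called higher in flu/ex1/ydl1 and 0 lower. Of all genes 7% were called higher there and 8.97% either way. The median log2 fold change of the 10 was -0.27, against -0.01 over all genes. At 60 min 2 were higher and 1 lower, with a median of -0.24 against -0.05 over all genes. Of all genes 8.53% were called higher at 60 min and 9.86% either way. At 30 min 1 of the 10 was higher, as were 3.56% of all genes. In the light comparisons within flu/ex1/ydl1 1 was higher at 30 min and 1 at 60 min, as were 4.79% and 9.6% of all genes. Within flu/ex1 edgeR called 0 of the 10 at either time, and 0.649% and 1.38% of all genes at 30 and 60 min. There 1 and 2 of the 10 had an unadjusted p under 0.05 at 30 and 60 min, and DESeq2 called 0 and 1. The 60 min response differed between genotypes for 1 of the 10 and for 3.26% of all genes. Such counts out of 10 tell nothing of the family as a whole. In the B group PP2-B1 was the only gene outside the 5 loci with enough counts, with a log2 fold change of 0.40 ± 0.61 between genotypes at 60 min (edgeR adjusted p = 0.772). The other B-group genes reached at most 7 counts in a library. Large values in the B group were thus seen for PP2-B13 and PP2-B14, and only in the lit flu/ex1/ydl1 libraries. In darkness, and in flu/ex1 at 60 min, the means of both lay under that of PP2-B10.

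PP2-A5, an A-group gene linked to defence against spider mites, was the relative with the largest called change. It had 10.6 and 10.3 CPM in flu/ex1/ydl1 at 0 min, 49.6 and 79.8 CPM at 30 min, and 23.4 and 60.8 CPM at 60 min. In flu/ex1 it had 12.2 and 6.99 CPM at 0 min, 8.91 and 12 CPM at 30 min, and 3.72 and 5.55 CPM at 60 min. The genotypes overlapped in darkness and not in light, as for PP2-B13, but from a dark level that was easily measured. PP2-A5 was higher in flu/ex1/ydl1 than in flu/ex1 by a log2 fold change of 1.99 ± 0.24 over all times (edgeR adjusted p = 3.00e-05). This difference was 2.63 ± 0.40 at 30 min (edgeR adjusted p = 0.000959) and 3.20 ± 0.42 at 60 min (adjusted p = 4.86e-05). Within flu/ex1/ydl1 PP2-A5 rose by 2.63 ± 0.41 at 30 over 0 min (edgeR adjusted p = 0.000514) and 2.02 ± 0.40 at 60 over 0 min (adjusted p = 0.00203). Its 60 min response differed between genotypes by 3.06 ± 0.58 (adjusted p = 0.00648). None of these calls held with labelled times. The log2 fold changes between genotypes were then 2.29 ± 0.51 over all times (adjusted p = 0.0768), 2.51 ± 0.89 at 30 min (adjusted p = 0.732) and 3.05 ± 0.91 at 60 min (adjusted p = 0.168), near the values above but with wider errors. Those of light within flu/ex1/ydl1 were smaller, at 0.25 ± 0.84 for 30 min (adjusted p = 0.966) and 0.78 ± 0.84 for 60 min (adjusted p = 0.91). The difference in the 60 min response was 1.73 ± 1.21 with labelled times (adjusted p = 0.829), and its adjusted p was 0.0513 with replicate numbers as a block. The call at 60 over 0 min was lost without flu/ex1/ydl1 60 min replicate 2, at 1.16 (adjusted p = 0.0668), and the call between genotypes at 30 min without flu/ex1 30 min replicate 2 (adjusted p = 0.0538).

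PP2-A11, another A-group gene, was the PP2 gene with the highest mean CPM. It had 28.7 and 27.9 CPM in flu/ex1/ydl1 at 0 min, 32.2 and 36.3 CPM at 30 min, and 33.4 and 38.6 CPM at 60 min. In flu/ex1 it had 22.3 and 28.6 CPM at 0 min, 18.2 and 26.7 CPM at 30 min, and 9.28 and 15.7 CPM at 60 min. It was higher in flu/ex1/ydl1 by a log2 fold change of 0.76 ± 0.16 over all times (edgeR adjusted p = 0.0054) and 1.53 ± 0.29 at 60 min (adjusted p = 0.00136). With labelled times PP2-A11 lost the call over all times, at 0.75 ± 0.21 (edgeR adjusted p = 0.0947). The difference between genotypes in its 60 min response was 1.38 ± 0.40 and was not called by edgeR (adjusted p = 0.0781), while DESeq2 called it (adjusted p = 0.0478). Without the filter on low counts edgeR called this difference as well, at 1.35 ± 0.41 (adjusted p = 0.0406). Leaving out single libraries moved it between 1.05 and 1.81. The call of PP2-A11 between genotypes at 60 min was lost without flu/ex1 60 min replicate 1, at 1.20, and with labelled times (edgeR adjusted p = 0.162).

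PP2-A10 was lower in flu/ex1/ydl1 at 60 min, at 1.43 and 5.63 CPM in flu/ex1/ydl1 against 8.46 and 10.5 CPM in flu/ex1. The log2 fold change was -1.27 ± 0.36 (edgeR adjusted p = 0.0312). This call was lost on leaving out any of 6 libraries, with adjusted p up to 0.227 and a fold change of -0.70 without flu/ex1/ydl1 60 min replicate 1, on the 4 libraries compared alone (adjusted p = 0.116) and with labelled times (adjusted p = 0.271). Without flu/ex1/ydl1 60 min replicate 2 the log2 fold change was -2.72 at 60 min and -1.08 over all times. PP2-A10 was not called over all times with all libraries, and that depended on this library. Over all times PP2-A10 was called lower without the filter on low counts, at -0.61 ± 0.19 (edgeR adjusted p = 0.0187). PP2-A1, the phloem lectin gene of the A group, ran between 11.5 and 27.8 CPM in flu/ex1/ydl1 and between 19.9 and 29.3 CPM in flu/ex1. It was not called over all times (log2 fold change -0.41 ± 0.20, edgeR adjusted p = 0.235) or at 60 min (-0.33 ± 0.35, adjusted p = 0.639). Without flu/ex1/ydl1 60 min replicate 2, which left 1 library in that group, the fold change of PP2-A1 over all times was larger in size, at -0.63. Whether PP2-A1 was called over all times thus depended on that library. At 60 min it turned to 0.13 without flu/ex1/ydl1 60 min replicate 1.

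**Figure D5:**
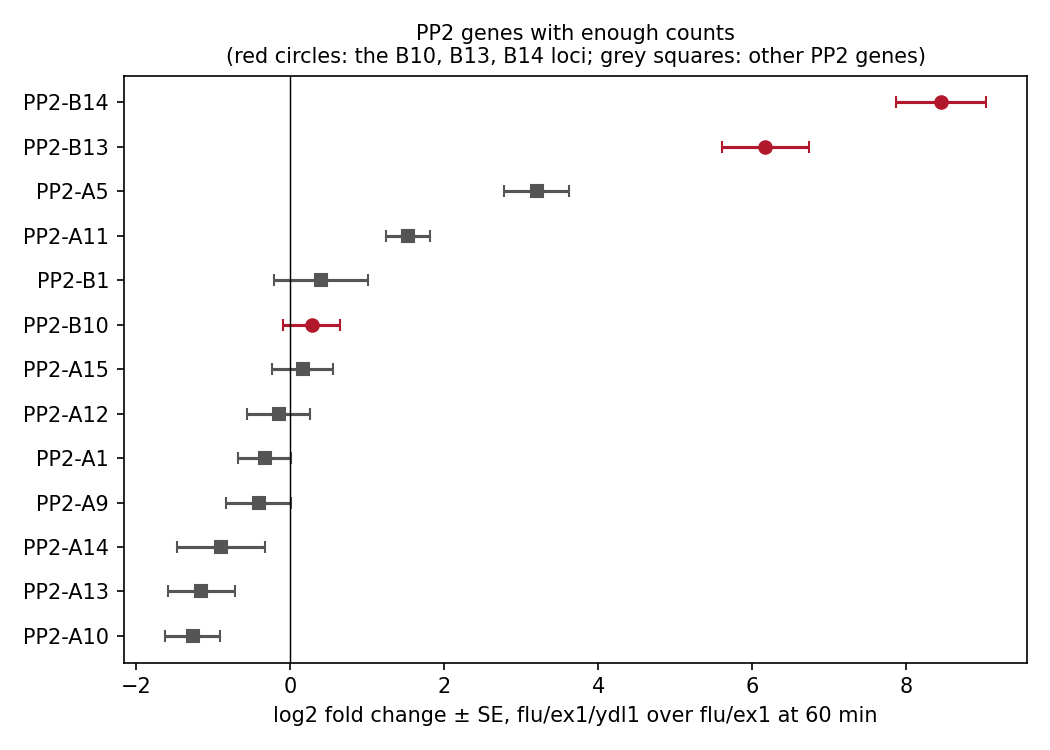
Log2 fold change ± SE of flu/ex1/ydl1 over flu/ex1 at 60 min for the PP2 genes with enough counts; red circles are PP2-B10, PP2-B13 and PP2-B14 and grey squares the 10 other PP2 genes. PP2-B14 and PP2-B13 stand at 8.45 and 6.17, PP2-A5 at 3.20, PP2-A11 at 1.53 and PP2-A10 at -1.27.

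Genes of the ligase and its targets were not called with the cluster. Of 7 such genes tested, namely the SKP1-type adaptors, CUL1, RBX1, the F-box gene SKP2A, VIP1 and SNRK2.3, edgeR and DESeq2 each called 0 in each of the 9 comparisons, with at most 2 at an unadjusted p under 0.05. Their summed level ran between 151.5 and 211 CPM in flu/ex1/ydl1 and between 150.9 and 219 CPM in flu/ex1.

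Phloem markers were present and were not called. All 11 were tested, and edgeR and DESeq2 each called 0 in each comparison, with at most 3 at an unadjusted p under 0.05. Their summed level ran between 70.6 and 114 CPM in flu/ex1/ydl1 and between 77.8 and 117 CPM in flu/ex1. SUC2, the sucrose transporter of companion cells, averaged 18.5 CPM, and APL, a transcription factor of phloem identity, averaged 2.03 CPM. Of 5 root markers 1 had enough counts, and 4 of 4 mesophyll markers had. Of these 5 genes edgeR called 0 in each comparison, with at most 1 root and 2 mesophyll genes at an unadjusted p under 0.05, and DESeq2 called 1, RCA, for 60 min of light in flu/ex1. The root sums were 2.48 to 7.91 CPM in flu/ex1/ydl1 and 2.06 to 5.11 CPM in flu/ex1, and the mesophyll sums 5563 to 7669 CPM in flu/ex1/ydl1 and 4512 to 6959 CPM in flu/ex1. No marker was at 0 in all libraries.

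Genes with the most similar profile were ranked, among 16292 genes, by the root mean square of their log2 CPM differences over the 12 libraries, each gene centred on its own mean. The closest to PP2-B13 was AT1G56242 at 0.13, and the next were AT5G66650 at 0.48, the ubiquitin ligase gene CNI1 at 0.51, the ethylene response factor gene ERF6 at 0.52, AT1G76600 at 0.56 and the glucosyltransferase gene UGT73B5 at 0.60. PP2-B14 was at rank 15 of that list, at 0.66. For PP2-B14 itself, PP2-B13 and AT1G56242 were at ranks 1 and 2, followed by ERF6 at 0.77, AT1G05575 at 0.78, AT2G32200 at 0.83, CNI1 at 0.86 and AT5G66650 at 0.94. For AT1G56242 the list was that of PP2-B13, with the calcium-binding protein gene PBP1 at 0.58 in place of UGT73B5. The profile is the one that chose the loci, and the libraries are shared, so the list is a description.

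ERF6 averaged 2.80, 78.9 and 93.6 CPM in flu/ex1/ydl1 at 0, 30 and 60 min, and 1.55, 5.54 and 2.99 CPM in flu/ex1. AT5G66650 averaged 1.60, 33.8 and 41.0 CPM in flu/ex1/ydl1, and 1.73, 4.35 and 1.93 CPM in flu/ex1. Both have the low dark level, the high lit level in flu/ex1/ydl1 and the small 30 min value in flu/ex1 that PP2-B13 had. PP2-B10 had another neighbourhood, of genes that varied little. Its closest were the profilin gene PRF3 at 0.12, AT1G51200 at 0.14, AtNug2 at 0.14, the plastid locus ATCG00470 at 0.14 and AT1G24050 at 0.15. PP2-B13 was at rank 16282 and PP2-B14 at rank 16289 of the 16292 genes in the list of PP2-B10. The measure is not scaled, so genes that vary widely must rank last against a gene that varies little. The SD of log2 CPM was 2.425 for PP2-B13 and 2.82 for PP2-B14, against 0.226 for PP2-B10. The correlation with PP2-B10 over the 12 libraries was 0.32 for PP2-B13 and 0.31 for PP2-B14.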

How the data were processed

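The authors deposited unnormalised counts of reads for each locus, in 1 file for each of 12 libraries. Per the labels' protocols, these come from total RNA and an Illumina TruSeq preparation. Per the submitters' processing notes, the authors' tools were Trimmomatic, FastQC, TopHat2 2.1.1 and featureCounts, with the genome build TAIR10. The annotation, strand setting and treatment of reads matching several loci are not given in the sources used here. Names, strands, exon lengths and neighbour order come from the assembly TAIR10.1, in which 36632 of 36917 loci were found. No coordinates or sequences are given, since the builds differ.

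Libraries were grouped by genotype and file-name light time. Loci were kept with filterByExpr (minimum count 10, minimum total 15), scaled by TMM and fitted in 1 model of 6 groups with edgeR 4.0.16 (R 4.3.3), whose quasi-likelihood F test gave each comparison. The p-values of each comparison were adjusted over all 17879 genes by Benjamini-Hochberg, with a threshold of 0.05. The SE is the size of a fold change divided by the square root of its F. Likeness used a prior count of 2 and genes with a mean of at least 1 CPM. Shares carry exact (Clopper-Pearson) 95% intervals from SciPy 1.17.1, as do ratios of counts, and cover counting error only. A simulation covered the genotype comparison over all times only. It bears on neither the other comparisons nor loci with few counts.

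The members and lists were chosen with earlier results of these data known. Genes were named by a rule: the 5 loci, the other PP2 genes called in a comparison of genotypes and the 4 with the highest mean, 3 annotated neighbours on each side, and the 5 closest profiles of each locus. Tried as alternatives were the labelled times, DESeq2 1.42.0, edgeR with DESeq2's size factors, all loci with a count, nuclear loci, a fit of the compared libraries alone, a block for file-name replicate number, and leaving out each library. File-name tag as a term, the alternatives for the 4 A-group relatives and the ratios of counts were added after the data were seen. No pair of libraries was identical.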

Additional observations from a re-analysis of the deposited data

Results flagged for a closer look

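The light response at 60 min differed between the genotypes for PP2-A5, by an edgeR test of the difference itself. On the log2 scale, the response in flu/ex1/ydl1 minus that in flu/ex1 was 3.06 (adjusted p = 0.00648). The same difference was 6.19 for PP2-B13, 6.52 for AT1G56242 and 8.05 for PP2-B14. These 3 loci were chosen with such values known, so theirs are a description with no test, and PP2-B14 passed the filter through its flu/ex1/ydl1 libraries alone. All 4 depend on the file-name times: with labelled times the values were 2.60 for PP2-B13, 2.63 for AT1G56242, 3.72 for PP2-B14 and 1.73 for PP2-A5, the last with an adjusted p of 0.829.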

How the results depend on the processing

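PP2-B13, AT1G56242, PP2-B14 and PP2-B10 gave 716 values under an alternative. Of these, 678 kept the sign of the value reported and 653 lay within the spread between replicates of it. Many came from leaving out a library that was not in the groups compared, so they could hardly move. PP2-B13 and AT1G56242, which cannot be separated, were both counted. The totals are therefore no measure of robustness. With labelled times edgeR called 6 genes between genotypes over all times, among them 0 of the other PP2 genes, and 0 genes in the 30 min, 60 min (0 other PP2 genes), light and interaction comparisons; the cause was not tested. DESeq2 called 186 genes for 30 min of light in flu/ex1. Without the filter, which adds loci, 4 other PP2 genes were called over all times, and 10 genes between genotypes at 0 min, 363 and 701 for 30 and 60 min of light in flu/ex1 and 885 for the interaction. With only the groups compared, which uses fewer libraries, 8 genes were called between genotypes at 0 min. Correlations of deviations were 0.160, 0.088, 0.276 and -0.182 in the 4 pairs of groups that share both file numbers. These few values do not settle whether the numbers pair the libraries. By file-name tag the correlations ran between -0.21 and 0.276 over the pairs of groups. With the replicate number as a block, the interaction called 334 genes, against 582 without it, and the genotype comparison at 0 min called 1.

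Leaving out each library in turn gave 1023 to 2190 genes between genotypes over all times and 2 to 4 other PP2 genes, 0 to 4 genes at 0 min, 117 to 812 at 30 min, 937 to 1848 at 60 min and 1 to 4 other PP2 genes. It gave 439 to 1091 and 1415 to 2380 genes for 30 and 60 min of light in flu/ex1/ydl1, 10 to 176 and 59 to 362 in flu/ex1, and 222 to 707 for the interaction. Where 1 library was left in a group, its spread was taken from the rest of the fit. PP2-B13 then had 5.17 to 7.15 between genotypes at 60 min and PP2-B14 8.07 to 8.88. PP2-A1 at 60 min ran between -0.99 and 0.13, PP2-A11 in the interaction between 1.05 and 1.81. PP2-A10 over all times ran between -1.08 and -0.40. Depth limits PP2-B11, the 3 clustered loci in darkness and PP2-B14 in flu/ex1.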
